A study of Mus musculus with 16 samples.

Results

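The transcriptomes compared here are those of S1 erythroid progenitors from *Nprl3* knockout (KO) and heterozygous (Het) mouse foetal livers, 4 libraries out of the 16 of the series. They were chosen by genotype and stage alone: homozygous embryos 2 (female) and 9 (male) against heterozygous embryos 3 and 4 (both male), all at E13.5, with 1 S1 library per embryo. KO embryos carry on both chromosomes, and Het embryos on one, a constitutive deletion of the promoter region of *Nprl3* that leaves the α-globin enhancers in place, on a C57BL/6J background. S1 cells were sorted by Ter119 and CD71 and correspond to erythroid colony-forming progenitors, and the S3 libraries of the same 4 embryos, sorted as basophilic erythroblasts, are used below where stages are compared. The labels do not give the litter of each embryo, and one of their fields names an embryonic stem cell line where the titles name foetal liver. The comparison asks how complete loss of *Nprl3* differs from loss of one copy, and no wild-type library entered a test.

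Nprl3 is a subunit of GATOR1, the complex that with Nprl2 and Depdc5 switches off the Rag GTPases and so keeps the kinase mTORC1 inactive when amino acids are scarce. mTORC1 promotes protein synthesis, glycolysis, sterol synthesis and translation of the transcription factor ATF4, and restrains autophagy. In mammals *Nprl3* lies beside the α-globin genes and houses their main enhancers in its introns, which is why it is of interest in red cells.

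The total count ran from 27044302 to 36035368 per S1 library, and 13243 to 14644 genes had 10 or more reads. A progenitor marker separated the S1 from the S3 libraries, though it is not confined to erythroid progenitors. *Kit*, the receptor of stem cell factor, had between 2000 and 3109 normalised counts at S1 and between 1.56 and 20.3 at S3, on a scale set over the 8 libraries of both stages. The library of KO embryo 9 stood somewhat apart, with globin genes taking 0.306% of its reads against 0.0738% to 0.137% in the other S1 libraries and mitochondrial genes 0.623% against 0.400% to 0.437%. Its correlation with the other libraries, on log2 normalised counts, was 0.973 to 0.980, and the median absolute difference between the KO libraries was 0.29 on the log2 scale against 0.21 between the Het libraries. KO embryo 2 was the only female of the comparison, so that sex could not be told apart from this embryo. *Xist*, the X-inactivation RNA, stood at 973 normalised counts in KO embryo 2 and at 15.5, 8.84 and 2.46 in KO embryo 9, Het embryo 3 and Het embryo 4. The Y-linked *Ddx3y* stood at 1.04 in KO embryo 2 and at 1728, 1636 and 1520 in the others, and *Eif2s3y*, *Kdm5d* and *Uty* were likewise at 1.04 to 2.08 in that embryo.

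The *Nprl3* transcript was first checked against the labels. *Nprl3* (ENSMUSG00000020289.16, mm39, chromosome 11 from 32175628 to 32217707, minus strand) had 13.51 normalised counts in KO embryo 2 and 29.3 in KO embryo 9, against 535 in Het embryo 3 and 556 in Het embryo 4. Both KO libraries lay far below both Het libraries, with a mean of 21.4 ± 11.1 (SD, n = 2) against 545 ± 15.3 (SD, n = 2). The log2 fold change (log2FC) of KO against Het was −4.65 ± 0.35 (SE, edgeR quasi-likelihood fit), and the p adjusted over 13814 genes by the Benjamini-Hochberg method was 0.00162. All adjusted p below come from this fit unless another is named. Transcript was thus still counted in the KO, at 13 and 32 raw reads. Of the 7572 exonic bases of *Nprl3*, 1340 (17.7%) are shared with exons of *Mpg*, a DNA repair glycosylase on the opposite strand, and because reads were counted without regard to strand and dropped where they fell in more than 1 gene, reads within these bases entered neither count. *Mpg* itself stood at 369 and 329 normalised counts in KO embryos and 348 and 366 in Het embryos. The reference sequence of the 250 bases before the *Nprl3* start (RefSeq, GRCm38.p6, chr11:32267708-32267957, minus strand) is given because the promoter is what the allele removes. The exact ends of the deletion were not used here.
Nprl3: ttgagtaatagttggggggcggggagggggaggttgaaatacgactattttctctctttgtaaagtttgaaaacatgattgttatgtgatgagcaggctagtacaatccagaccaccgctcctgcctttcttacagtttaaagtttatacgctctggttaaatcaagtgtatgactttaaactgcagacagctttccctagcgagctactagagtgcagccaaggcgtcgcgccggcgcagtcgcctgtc

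At S3 the same embryos gave a different picture of *Nprl3*. On the scale of the 8-library fit, *Nprl3* stood at 9.40 and 20.1 normalised counts in the KO and 377 and 383 in the Het at S1, but at 3370 and 3590 in the KO and 4707 and 3867 in the Het at S3. The KO libraries were below the Het libraries at both stages, yet at S3 the groups lay close together. At S3 the log2 fold change was −0.30 ± 0.19 (SE). The difference between the stages was 4.35 ± 0.33 (SE), with an adjusted p of 0.00385 in edgeR. It was the only gene of 13271 tested (0.00754%) with an adjusted p under 0.05 for a difference of the effect between stages. With the embryo as a block this count was 55 and included *Nprl3*, and it was 0 when either Het embryo was left out, 33 without KO embryo 9 and 269 without KO embryo 2. Most α-globin enhancers lie in *Nprl3* introns and are themselves transcribed in erythroblasts. How much of the S3 signal comes from such transcripts was not tested here. The paper states that these transcripts confound the measurement of *Nprl3* and code for no protein. Its droplet PCR for promoter-derived transcript detected no *Nprl3* mRNA in homozygous cells.

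Across all genes the KO and Het S1 libraries differed little by the strict test. An adjusted p under 0.05 was reached by 3 genes that rose (0.0217% of 13814) and 3 that fell (0.0217%), with 731 genes (5.29%) higher and 191 (1.38%) lower at an unadjusted p under 0.05. Both KO libraries lay above both Het libraries for 18.4% of genes and below for 17.3%, which is the background for all counts of non-overlapping groups below. The median log2 fold change of all genes was 0.01. The count of calls depended on the method and on single libraries. DESeq2 called 53 genes higher and 13 lower, which included all 6 genes named next, and edgeR with upper-quartile normalisation called 1 higher and 2 lower. Leaving out KO embryo 9 gave 154 and 49, and leaving out KO embryo 2 gave 1151 and 319, whereas leaving out Het embryo 3 gave 1 and 3 and leaving out Het embryo 4 gave 7 and 3.

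**Figure D1:**
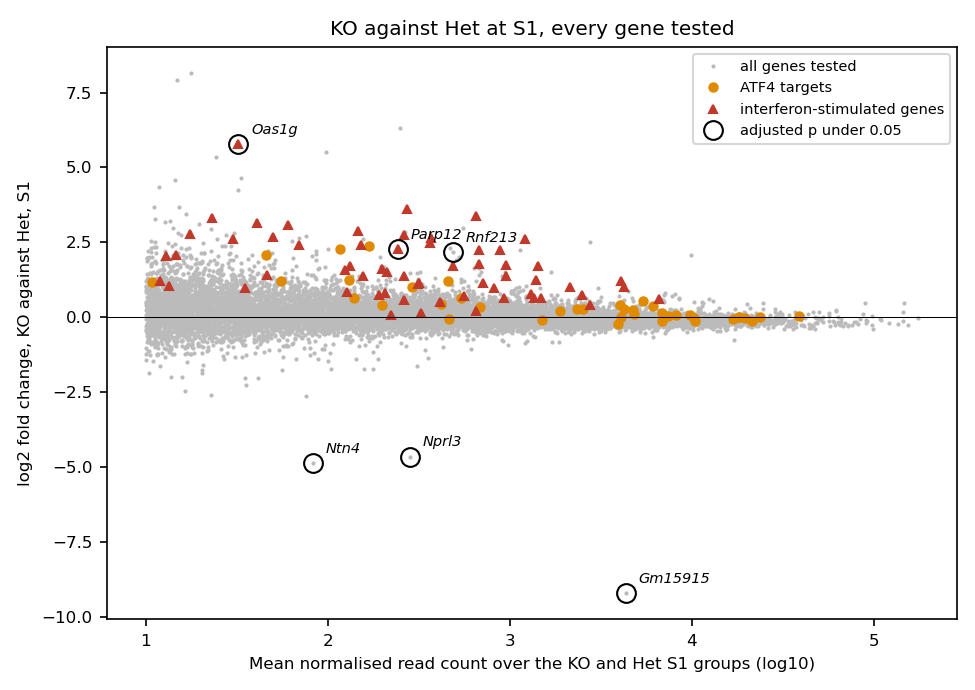
Each point is a gene tested at S1, with the mean normalised read count over the KO and Het groups (log10) on the x axis and the log2 fold change of KO against Het on the y axis. Triangles are interferon-stimulated genes, filled orange circles are ATF4 targets and open circles mark the 6 genes with an adjusted p under 0.05. The interferon-stimulated triangles all lie above 0.

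The 3 genes that rose were *Rnf213*, *Parp12* and *Oas1g*. *Rnf213*, a very large E3 ubiquitin ligase (chromosome 11 from 119283926 to 119378244, plus strand), stood at 733 and 870 normalised counts in KO embryos 2 and 9 and at 183 and 172 in Het embryos 3 and 4. Its log2 fold change was 2.17 ± 0.22 (SE, adjusted p = 0.0119), a fold of 4.51. *Parp12*, an ADP-ribosyltransferase of the antiviral response (chromosome 6 from 39063344 to 39095283, minus strand), stood at 460 and 344 against 73.3 and 93.5, with a log2 fold change of 2.27 ± 0.27 (SE, adjusted p = 0.0363). *Oas1g* encodes a 2′-5′ oligoadenylate synthetase, an enzyme that senses double-stranded RNA (chromosome 5 from 121014205 to 121025676, minus strand). It had 82 and 46 raw reads in the KO against 1 and 1 in the Het (adjusted p = 0.0435, edgeR). With so few Het reads, *Oas1g* passed the filter on the mean count only through the KO libraries. The ratio of KO to Het reads, scaled to library size, was 60.5 with an exact 95% binomial interval of 16.4 to 505 that covers counting error only. *Oas1g* belongs to a family of near-identical copies, so its counts are uncertain. *Oas1g* and *Parp12* lost the call without Het embryo 3 (adjusted p of 0.721 for both) and without Het embryo 4 (0.0573 for both), and *Rnf213* lost it without Het embryo 3 (0.202).

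Besides *Nprl3*, the genes that fell were *Gm15915* and *Ntn4*, which overlap on chromosome 10. *Gm15915* is a long non-coding RNA (93510080 to 93519184, minus strand) inside the bounds of *Ntn4*, a secreted netrin (93476543 to 93583069, plus strand), and their exons share 0 bases. *Gm15915* had 16 and 14 raw reads in the KO against 6499 and 9387 in the Het, and its log2 fold change of −9.20 ± 0.43 (SE, adjusted p = 4.67e-05) exceeded that of *Nprl3* in size. *Ntn4* had 7 and 4 raw reads against 112 and 181, with a log2 fold change of −4.86 ± 0.56 (SE, adjusted p = 0.0325). In the 4 wild-type S1 libraries *Gm15915* had 2807, 6473, 5517 and 1 raw reads and *Ntn4* 85, 88, 88 and 6, so that 3 wild-type embryos lay with the Het embryos or near them and 1 was as low as the KO embryos. *Nprl3* had 881 to 1588 raw reads in those libraries.

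**Figure D2:**
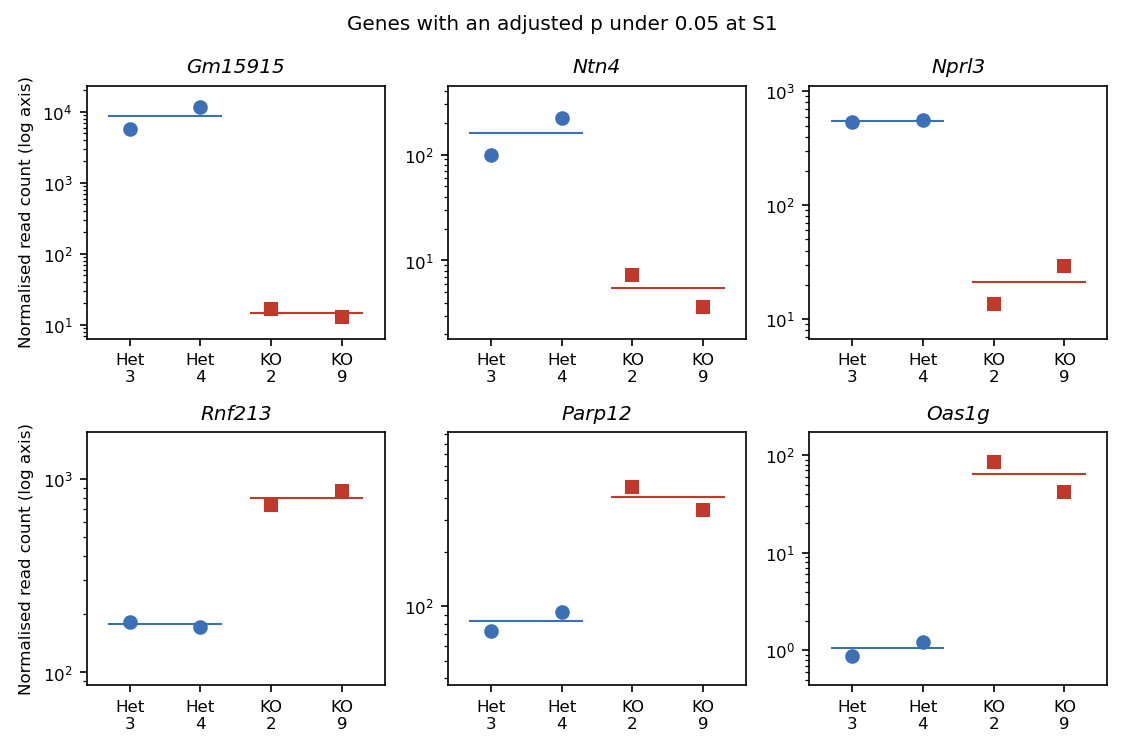
Normalised read counts (log axis, a separate range per panel) of the 6 genes with an adjusted p under 0.05, with Het embryos 3 and 4 as circles, KO embryos 2 and 9 as squares and a line at each group mean. The groups do not overlap in any panel, and *Gm15915* has the widest gap.

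The gene list with the highest share of members that did not overlap between the groups was that of interferon-stimulated genes, the antiviral programme that type I interferons switch on. All 60 members tested of the 66 listed had a log2 fold change above 0, with a median of 1.41. For some members the filter, a mean above 10 over the 4 libraries, fixed this direction. They were *Oas1g*, *Oas2*, *Oas3*, *Ifit1*, *Ifit3*, *Tgtp1*, *Zbp1*, *Gbp2* and *Slfn5*, which passed only through the KO libraries. The same held in later lists, as for *Atf5*, *Apob* and *Ppbp*. Both KO libraries lay above both Het libraries for 53 of the 60 (88.3% against 18.4% of all genes) and below for 0. At an unadjusted p under 0.05, 49 of the 60 were higher (5.29% of all genes were). Only *Parp12* and *Oas1g* passed the adjusted threshold in edgeR, where 0.0217% of all genes were higher. DESeq2 called 21 of the list (0.478% of all genes were called), and edgeR called 50 without KO embryo 9 (1.5% of all genes), 35 without KO embryo 2 (10.6%), 0 without Het embryo 3 and 6 without Het embryo 4. Leaving out KO or Het embryos in turn moved the median over the list from 1.06 to 1.92. Over its members, the median log2(normalised count + 1) relative to the Het mean was 1.69 in KO embryo 2, 1.12 in KO embryo 9, −0.30 in Het embryo 3 and 0.30 in Het embryo 4, so the KO libraries differed among themselves and the Het libraries did too.

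Single members showed the gap in every library. *Isg15*, a ubiquitin-like protein that is conjugated to other proteins in the antiviral response, stood at 766 and 238 normalised counts in KO embryos 2 and 9 and at 28.3 and 55.4 in Het embryos 3 and 4 (log2FC 3.61 ± 0.56 SE, adjusted p = 0.0793). *Lgals3bp*, a secreted glycoprotein, stood at 2719 and 1427 against 227 and 454, and *Trim30a*, a tripartite motif protein, at 833 and 410 against 91.0 and 133. For these genes embryo 2 was the higher of the KO libraries and embryo 4 the higher of the Het libraries. *Rsad2*, which encodes the antiviral enzyme viperin, stood at 76.9 and 96.0 against 12.4 and 14.8, *Parp14* at 118 and 117 against 18.6 and 25.8, and *Samd9l* at 309 and 289 against 96.3 and 99.7. Here the KO libraries were close to each other and separated from the Het libraries by a wide gap. The log2 fold changes of *Lgals3bp*, *Trim30a*, *Parp14*, *Rsad2* and *Samd9l* were 2.61, 2.48, 2.42, 2.67 and 1.61, each with an adjusted p of 0.0793.

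A regulator and effectors of the pathway were among the higher genes, though none of those named next passed the adjusted threshold. *Irf7*, which amplifies interferon production, stood at 2029 and 920 in the KO against 308 and 583 in the Het (log2FC 1.73, adjusted p = 0.311). *Ifit1*, which binds foreign RNA caps, stood at 106 and 41.1 against 8.84 and 7.38 (3.14, adjusted p = 0.149), and *Oasl2* at 420 and 95.1 against 15.02 and 56.6 (2.89, adjusted p = 0.445). *Ifit3* was low in all libraries, at 12.5 and 21.03 against 7.07 and 7.38 (1.21, adjusted p = 0.776). The list was drawn up with earlier results of these data known and is no independent evidence of its direction.

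**Figure D3:**
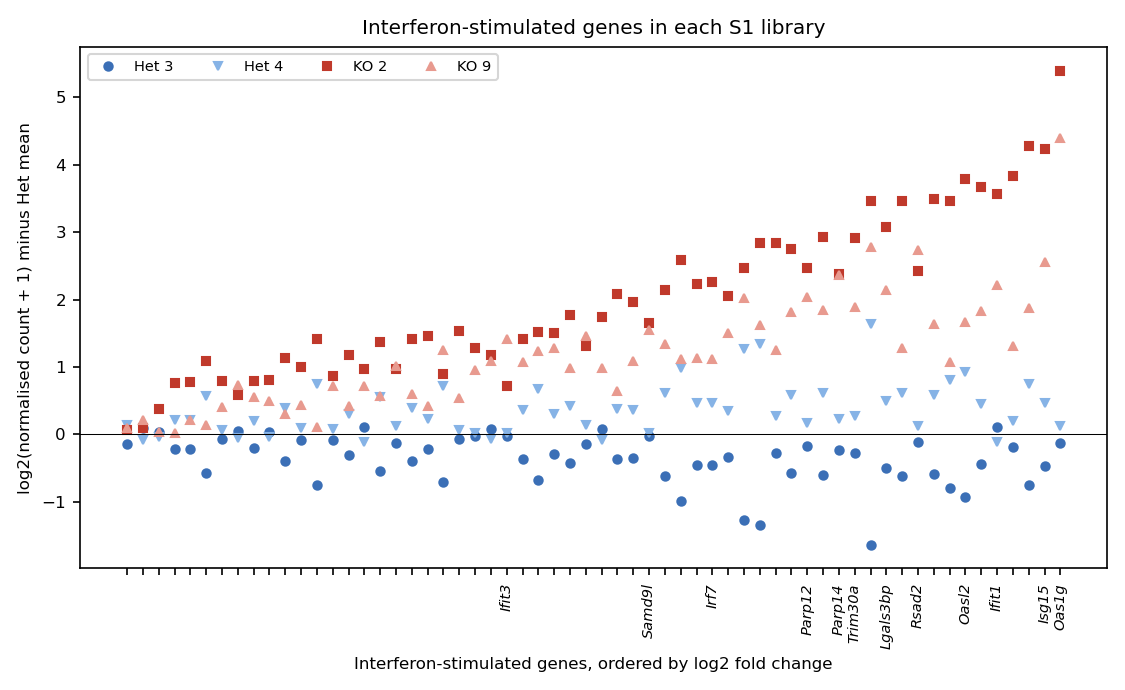
The 60 interferon-stimulated genes tested, ordered along the x axis by their log2 fold change and labelled where the text gives their values, with log2(normalised count + 1) minus the Het mean on the y axis for Het embryos 3 (circles) and 4 (inverted triangles) and KO embryos 2 (squares) and 9 (triangles). KO embryo 2 is mostly the highest and Het embryo 3 mostly the lowest library.

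Promoter sequences of some of these genes are shown because members that moved together can be compared for shared letters. RefSeq promoters (250 bases before to 50 after the start, GRCm38.p6) were at hand for 49 of the 60 genes. The interferon-stimulated response element, searched as GAAANNGAAA on both strands with overlaps allowed, was held by 25 of the 49 (51.0%), against 3.69% of the 9479 tested genes with a promoter in the table. The windows of 100 bases below were centred on the matches where the promoter held any, within the part before the start, and otherwise end at the start. They end 17 bases before the start for *Isg15*, 40 for *Ifit1* and 65 for *Rsad2*, and at the start for *Oas1g* and *Parp12*. They have the match in capitals, which reads TTTCNNTTTC where the motif is on the other strand, and overlapping matches run together. They lie at chr4:156200836-156200935 (minus strand) for *Isg15*, chr5:120887614-120887713 (minus) for *Oas1g*, chr19:34640749-34640848 (plus) for *Ifit1*, chr12:26456518-26456617 (minus) for *Rsad2* and chr6:39118350-39118449 (minus) for *Parp12*.
Isg15: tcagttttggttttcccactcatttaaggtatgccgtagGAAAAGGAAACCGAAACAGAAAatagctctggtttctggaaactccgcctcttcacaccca
Oas1g: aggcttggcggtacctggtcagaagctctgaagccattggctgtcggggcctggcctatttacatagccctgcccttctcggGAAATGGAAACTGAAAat
Ifit1: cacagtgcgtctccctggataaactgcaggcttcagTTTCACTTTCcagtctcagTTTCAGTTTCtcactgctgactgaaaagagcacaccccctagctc
Rsad2: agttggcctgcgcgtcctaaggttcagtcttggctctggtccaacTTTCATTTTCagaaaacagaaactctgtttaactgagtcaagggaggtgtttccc
Parp12: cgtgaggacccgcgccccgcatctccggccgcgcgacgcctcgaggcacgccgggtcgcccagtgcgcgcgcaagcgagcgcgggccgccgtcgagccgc

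Over the whole promoter of 300 bases, *Isg15* held 3 overlapping matches, *Oas1g* 2, *Ifit1* 2 and *Rsad2* 1, all of them within the windows shown. The promoters of *Parp12* and *Rnf213* held 0 matches. The C/EBP-ATF response element, searched as TGATGNAAT on both strands, was held by 1 of 27 ATF4 targets with a promoter in the table (3.70%), against 0.506% of the tested genes. It was held by 1 of 49 interferon-stimulated genes too (2.04%), and with 1 gene in each list these shares cannot be compared. A match is a description of letters and not of binding.

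ATF4 targets were compared next, genes that serve amino acid import and synthesis and are switched on when amino acids run short or mTORC1 is active. Of 40 members tested, 31 were above 0 and 9 below, the median log2 fold change was 0.23, and both KO libraries lay above both Het libraries for 18 (45.0% against 18.4% of all genes) and below for 2. None passed the adjusted threshold in edgeR (11 of the 40 were higher at an unadjusted p under 0.05, against 5.29% of all genes). DESeq2 called 3, where it called 0.478% of all genes. EdgeR called 9 of the list without KO embryo 2 (where 10.6% of all genes were called), 5 without KO embryo 9 (1.5% of all genes), 0 without either Het embryo and 1 with the 8 libraries of both stages, and the median was 0.10 without Het embryo 4 and 0.12 without KO embryo 9. *Trib3*, a pseudokinase induced by ATF4, stood at 212 and 355 normalised counts in KO embryos 2 and 9 and at 53.9 and 55.4 in Het embryos 3 and 4 (log2FC 2.37 ± 0.32 SE, adjusted p = 0.0709). *Slc7a3*, a transporter of arginine and other cationic amino acids, stood at 236 and 153 against 46.8 and 32 (2.28, adjusted p = 0.0793). *Chac1*, which degrades glutathione, stood at 81.1 and 67.7 against 18.6 and 16 (2.09, adjusted p = 0.158), and *Cth*, the last enzyme of cysteine synthesis, at 669 and 605 against 247 and 309 (1.20, adjusted p = 0.149). In these genes the groups were well apart.

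*Gpt2*, a mitochondrial alanine aminotransferase, stood at 347 and 432 normalised counts in the KO against 214 and 171 in the Het, and the cystine transporter *Slc7a11* at 75.9 and 79.5 against 36.2 and 30.8. Their log2 fold changes were 1.01 and 1.21, with adjusted p of 0.382 and 0.538. *Psph*, the last step of serine synthesis, stood at 4544 and 4662 against 3283 and 3614 (log2FC 0.42, adjusted p = 0.632). The other enzymes of serine and glycine synthesis did not separate the groups. *Phgdh* stood at 22285 and 18884 against 22831 and 21930, *Psat1* at 20143 and 19086 against 20546 and 18871, and *Shmt2* at 17632 and 15490 against 19434 and 14891. The asparagine synthetase *Asns* (44051 and 34765 against 36856 and 39472) and the stress factor *Ddit3* (487 and 426 against 441 and 509) overlapped as well.

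Glycolysis genes leaned upwards. Of 26 tested, 18 were above 0, and the list median was 0.16 on the log2 scale. Both KO libraries lay above both Het libraries for 10 (38.5% against 18.4% of all genes) and below for 1. None passed the adjusted threshold in edgeR. Of the 26, 5 were higher at an unadjusted p under 0.05, against 5.29% of all genes. The median was 0.0608 without KO embryo 2 and 0.25 without KO embryo 9. The phosphofructokinase *Pfkp* stood at 2318 and 1995 normalised counts in the KO against 1429 and 1399 in the Het (log2FC 0.61 ± 0.16 SE, adjusted p = 0.452). The lactate exporter *Slc16a3* stood at 8494 and 7838 against 5637 and 5122 (0.60), the glucose transporter *Slc2a1* at 2239 and 3365 against 1986 and 1663 (0.62) and the hexokinase *Hk2* at 723 and 649 against 510 and 415 (0.57). The hexokinase *Hk1* was lower in both KO libraries, at 9895 and 9335 against 12055 and 10094 (−0.20). Without 1 library the value of *Slc2a1* became 0.30 (KO embryo 9) and that of *Hk1* −0.0575 (Het embryo 3). The aldolase *Aldoa* stood at 41771 and 36334 against 34135 and 35418 (0.17), and *Tpi1*, the triose phosphate isomerase, at 63943 and 55345 against 55793 and 51915 (0.15), with overlap for *Tpi1*, and without KO embryo 2 these values were 0.0608 and 0.0370.

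Genes of the tricarboxylic acid cycle leaned the other way by small amounts. Of 21 tested, 18 were below 0 with a median of −0.13, and both KO libraries lay below both Het libraries for 8 (38.1% against 17.3%), with no member past the adjusted threshold. At an unadjusted p under 0.05 in edgeR, 0 were lower and 1 was higher, against 1.38% and 5.29% of all genes. The median was −0.24 without KO embryo 2 and −0.0759 without KO embryo 9. The exception in size was *Idh1*, the cytosolic isocitrate dehydrogenase, at 2000 and 2182 in the KO against 1295 and 1431 in the Het (log2FC 0.62, adjusted p = 0.440). *Mdh2*, the mitochondrial malate dehydrogenase, stood at 32674 and 23139 against 35664 and 36579 (−0.37). Sterol synthesis genes were above 0 for 22 of 25, with a median of 0.14 and 13 (52.0%) non-overlapping upwards. None passed the adjusted threshold in edgeR, and 1 of the 25 was higher at an unadjusted p under 0.05. The leading sterol genes were *Cyp51*, at 1549 and 1531 against 1049 and 1287 (adjusted p = 0.724), and *Hmgcs1*, at 664 and 807 against 528 and 560 (adjusted p = 0.750). DNA replication genes were below 0 for 21 of 28, with a median of −0.12 and 10 (35.7%) non-overlapping downwards, and the median was −0.0701 without KO embryo 9. None of them had an unadjusted p under 0.05 in edgeR.

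**Figure D4:**
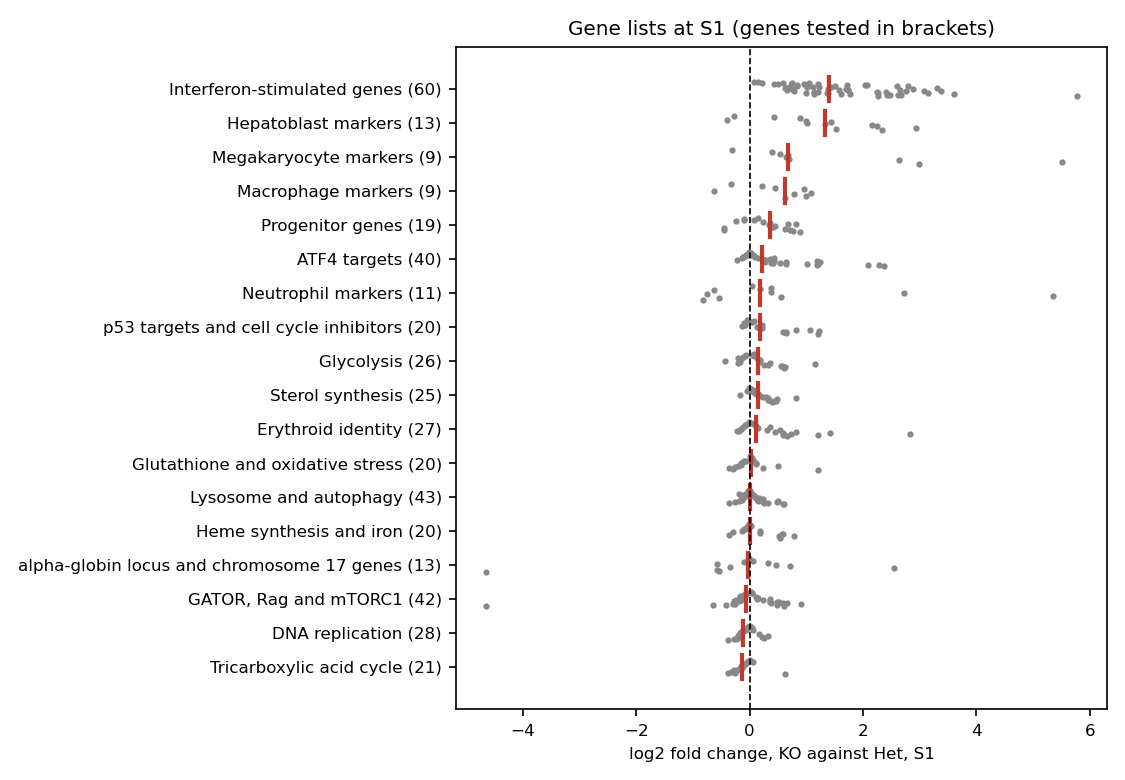
Each grey point is the log2 fold change of KO against Het at S1 for a gene of the list named on the y axis, with the median of the list as a red bar and the median of all genes tested as a dashed line. The interferon-stimulated genes lie to the right of 0, with a median of 1.41, and most other lists are centred near 0.

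The GATOR, Rag and mTORC1 genes themselves showed little apart from *Nprl3*. Of 42 tested, 18 were above 0 and 24 below, with 5 (11.9%) non-overlapping upwards and 8 (19%) downwards, both near the background. *Nprl2* and *Depdc5*, the other GATOR1 subunits, stood at 1481 and 1253 against 1234 and 1306 and at 268 and 379 against 272 and 225, so the groups overlapped for each. *Samtor*, a sensor of S-adenosylmethionine, stood at 328 and 365 against 242 and 210 (log2FC 0.61), and the Rag GTPase *Rragb* at 190 and 144 against 250 and 273 (−0.65), neither past the adjusted threshold. Lysosome and autophagy genes were split, with 22 above 0 and 21 below (median 0.01), led by the mitophagy receptor *Bnip3* at 3205 and 2405 against 1594 and 2070. Targets of p53 and cell cycle inhibitors were above 0 for 15 of 20 (median 0.18, 8 non-overlapping upwards, or 40.0%, and a median of 0.0867 without KO embryo 9), genes of glutathione and oxidative stress for 11 of 20 (median 0.02, and −0.11 without KO embryo 2) and genes of haem synthesis and iron for 10 of 20. None of the members of these 4 lists passed the adjusted threshold in edgeR, with 2, 4, 1 and 2 of them higher at an unadjusted p under 0.05, where 5.29% of all genes were.

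Neighbours of *Nprl3* in the α-globin region of chromosome 11 were next compared. *Snrnp25* stood at 2833 and 2489 normalised counts in the KO against 2250 and 2845 in the Het. *Hba-a1* stood at 12753 and 44502 against 17022 and 24239, and *Hba-a2*, its near-identical copy, at 1577 and 4904 against 2364 and 2824. The Het values of both α-globin genes lay between the KO values, low in embryo 2 and high in embryo 9. The embryonic *Hba-x* stood at 2.08 and 218 against 26.5 and 9.85. *Rhbdf1* had 15 reads over the 4 libraries and was not tested. Of the 7 genes tested in the chromosome 11 region, *Nprl3* was the only one with both KO libraries below both Het libraries, and for the other members the groups overlapped. Without KO embryo 9 the log2 fold changes of *Hba-a1*, *Hba-a2* and *Hba-x* turned from above to below 0, at −0.69, −0.71 and −3.10. The list also held genes that in the mouse lie on chromosome 17. Of 6 tested there, 4 had both KO libraries below both Het libraries. *Luc7l* overlapped, at 4829 and 5263 against 5168 and 5049. *Arhgdig* and *Fam234a* were lower in both KO libraries (1596 and 1370 against 1926 and 2373, and 479 and 467 against 773 and 639), with log2 fold changes of −0.54 and −0.58 and adjusted p of 0.602 and 0.629 (edgeR).

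Genes that mark erythroid maturation differed among the libraries. *Gata1* and *Klf1*, the main erythroid transcription factors, stood at 14425 and 12662 against 15508 and 15402 and at 23294 and 20198 against 22924 and 25072, and the erythropoietin receptor *Epor* at 7048 and 7477 against 9092 and 7842. *Kit* stood at 2989 and 3718 against 4321 and 2819, and the progenitor factor *Gata2* at 469 and 375 against 374 and 240. None of these 5 genes passed the test, with log2 fold changes from −0.22 for *Epor* to 0.45 for *Gata2*. Genes of later erythroid cells were highest in KO embryo 9. *Alas2*, the first enzyme of haem synthesis in red cells, stood at 490 and 1582 against 687 and 698, and *Slc4a1*, the band 3 anion exchanger, at 196 and 1782 against 403 and 338, so that KO embryo 2 lay below both Het embryos for each. *Tfrc* (transferrin receptor, CD71) stood at 10368 and 16372 against 10767 and 7977. Erythroid identity genes as a list had 17 of 27 above 0 and a median of 0.12, which was −0.07 without KO embryo 9. Progenitor genes had 14 of 19 above 0 and a median of 0.36, with *Fli1* at 323 and 523 against 228 and 228 and *Cd34* at 966 and 942 against 409 and 752, while *Myc* stood lower, at 12952 and 11239 against 17668 and 15399. No member of either list passed the adjusted threshold in edgeR. At an unadjusted p under 0.05, 4 erythroid identity genes were higher, and 4 progenitor genes were higher and 2 lower. Of all genes, 5.29% were higher and 1.38% lower at that threshold.

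Markers of other cells of the foetal liver were then compared, of which none passed the adjusted threshold in edgeR. At an unadjusted p under 0.05, 5 hepatoblast, 4 megakaryocyte, 3 macrophage and 2 neutrophil markers were higher, and 3 neutrophil markers lower. Of all genes, 5.29% were higher and 1.38% lower at that threshold. In bulk samples of sorted cells, fewer cells of a type and less RNA per cell cannot be told apart. The flow cytometry panel for foetal liver erythroid cells held antibodies to the myeloid antigens CD11b and Gr1, and whether the sort for RNA gated on them is not given in the sources used here. The summed level of 14 hepatoblast markers was 49.4 and 258 CPM (counts scaled to library size) in KO embryos 2 and 9 and 64.3 and 40.8 in Het embryos 3 and 4, with *Alb* at 216 and 1361 normalised counts against 199 and 113 and *Afp* at 407 and 3359 against 557 and 236. The 11 megakaryocyte markers summed to 51.3 and 127 against 41.4 and 36.1 CPM, with the platelet chemokine *Pf4* at 386 and 1588 normalised counts against 80.4 and 171 and *Ppbp* at 17.7 and 366 against 4.42 and 3.69. Both KO libraries lay above both Het libraries for 6 of the 9 megakaryocyte markers tested (66.7% against 18.4% of all genes) and for 3 of 13 hepatoblast markers (23.1%), and below for 0 of either. The 15 macrophage markers, of which 9 passed the filter, summed to 22.3 and 34.0 against 15.9 and 20.5 CPM, with *Csf1r* at 348 and 349 normalised counts against 183 and 268, *Adgre1* at 102 and 126 against 51.3 and 82.5 and *Vcam1* at 55.1 and 127 against 46.8 and 44.3, each higher in both KO libraries. Of the 9 tested, these 3 were above, *Marco* was below (16.6 and 14.6 against 29.2 and 18.5) and 5 overlapped. The 6 not tested had few reads over the 4 libraries, with 40 for *C1qa*, 37 for *Mrc1*, 37 for *Timd4*, 9 for *Clec4f*, 6 for *Siglec1* and 0 for *Vsig4*. The neutrophil markers summed to 2173 and 2329 against 2097 and 2117, with 3 of the 11 above (*Ctsg*, *Mpo* and *Csf3r*), 3 below (*S100a8*, *Elane* and *S100a9*) and 5 overlapping. Some were high in every library. *Mpo* stood at 51965 and 54737 normalised counts against 47313 and 46338, more than *Klf1* in each. *Elane* stood at 6300 and 5439 against 8435 and 8543. Without KO embryo 9 the median log2 fold change of hepatoblast markers went from 1.33 to −0.42, that of megakaryocyte markers from 0.69 to 0.19, that of macrophage markers from 0.63 to −0.53 and that of neutrophil markers from 0.19 to −0.63. The interferon median was 1.75 without KO embryo 9 and 1.06 without KO embryo 2. The part of these cells in the differences above was not tested.

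Among the other named genes were falls and a rise that did not pass the adjusted threshold. A gap between the groups was a condition for naming them. *Coro2a*, an actin-binding coronin, stood at 13.51 and 28.3 normalised counts in the KO against 119 and 144 in the Het (log2FC −2.63 ± 0.41 SE, adjusted p = 0.0793). *Trmo*, a tRNA methyltransferase gene 147499 bases from *Coro2a* on chromosome 4, stood at 213 and 187 against 523 and 501 (−1.35, adjusted p = 0.0823). *Etv5*, an ETS transcription factor, stood at 78.0 and 68.6 against 274 and 214 (−1.74, adjusted p = 0.0802). *Fam124a* stood at 103.9 and 60.3 against 303 and 242, *Spon2* at 83.2 and 76.8 against 232 and 182, and *Cyp4f39* at 23.9 and 27.4 against 80.4 and 92.3. The X-linked and multi-copy *Xlr4a* and *Xlr3a* stood at 53.01 and 44.8 against 180 and 140 and at 14.6 and 10.1 against 68.9 and 49.2, and *S100a8* at 1214 and 1267 against 2008 and 2348. Among the rises, *Ear1*, an eosinophil-associated ribonuclease of a multi-copy family, stood at 573 and 1024 against 223 and 204 (1.90, adjusted p = 0.0793).

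The named genes were then set beside their values in S3 libraries of the same embryos, which are not independent of the S1 libraries. Of the 12 named rises, 11 also had both KO libraries above both Het libraries at S3 (19.9% of all genes did), and *Ear1*, nearly absent there, did not. *Isg15* stood at 35593 and 15812 normalised counts in the KO against 1515 and 2915 in the Het at S3, on the 8-library scale, with a log2FC of 3.54 ± 0.60 (SE) against 3.61 in the S1 fit. *Rsad2* stood at 8727 and 4858 against 292 and 906 at S3 (3.50), and *Trib3* at 1777 and 1629 against 347 and 422 (2.15). On this scale *Isg15* stood at 533 and 163 against 19.95 and 38.2 at S1, so its level was far higher at S3 in both genotypes. Of the 12 named falls, 10 had both KO libraries below at S3 (21.1% of all genes did). *Etv5* overlapped at 39.0 and 26.03 against 35.8 and 28.6, and *S100a8* lay above, at 13.6 and 64.2 against 0 and 1.68. Several of the 10 rested on few S3 reads. Raw reads in KO embryos 2 and 9 against Het embryos 3 and 4 were 1 and 0 against 6 and 16 for *Ntn4*. They were 0 and 0 against 4 and 7 for *Coro2a* and 3 and 0 against 16 and 15 for *Xlr4a*. *Trmo* was separated by little, at 261 and 465 normalised counts against 508 and 467. Over the interferon list, 48 of 58 genes (82.8%) had both KO libraries above both Het libraries at S3, and the median log2 fold change in the 8-library fit was 1.40 at S1 and 1.71 at S3. Over the ATF4 targets it was 0.21 at S1 and 0.41 at S3, with 32 of 40 genes non-overlapping upwards at S3. No interferon-stimulated or ATF4 target gene passed the test of a difference between the stages in that fit. With the embryo as a block, the 55 genes that passed included the ATF4 targets *Slc7a11*, *Phgdh* and *Psph* and the interferon-stimulated *Sp100*, *Ube2l6* and *Oas1a*.

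**Figure D5:**
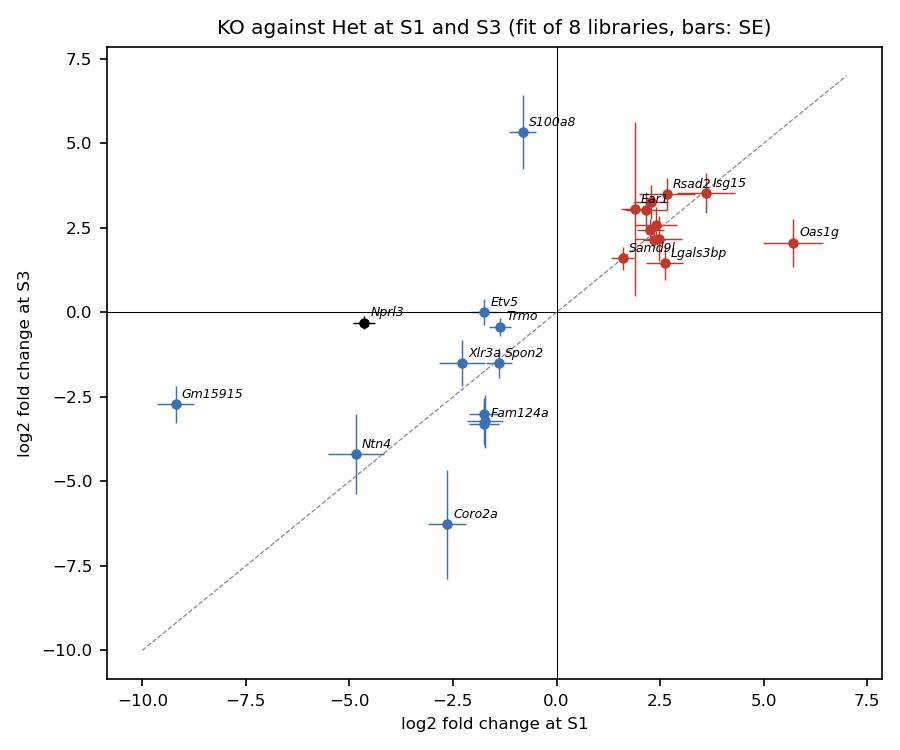
Log2 fold change of KO against Het at S1 (x axis) and S3 (y axis) for the 24 named rises (red) and falls (blue, *Nprl3* black), with standard errors as bars, equality as a dashed line and 8 genes of the crowded areas left unlabelled. *Nprl3* lies at −4.65 at S1 and −0.30 at S3, and the rises lie above 0 at both stages.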

How the data were processed

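S1 and S3 libraries of *Nprl3* KO and Het foetal livers (2 embryos each) were analysed. The authors mapped reads with STAR 2.7.9 to mm39 and deposited raw counts per gene from featureCounts 1.6.4 (Ensembl annotation). Per the file headers, strand was not used, and reads mapping to several places or genes were left out. Of 20 library columns, 16 were matched to samples of the series and the other 4 were not used, nor were the 4 wild-type S3 columns. TMM factors scaled the counts, and the quasi-likelihood functions of edgeR 4.0.16 (R 4.3.3) compared KO against Het over 4 S1 libraries without covariates, for genes with a mean above 10 normalised counts. Adjustment was that of Benjamini and Hochberg over all tested genes (threshold 0.05). The stage difference was the interaction over 8 libraries. All tests were two-sided. Normalised counts are scaled to the mean library. DESeq2 1.42.0 and other settings were alternatives, and the code was tested on simulated counts.

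Named genes were *Nprl3*, up to 12 called, non-overlapping rises and falls (filled by smallest p), the 5 smallest p per list, of which part are given, and fixed names. *Hk1*, *Mpo*, *Csf3r*, *Sp100*, *Ube2l6* and *Oas1a* were chosen after their values were seen. Members and lists were chosen with earlier results of these data known. A few genes are not reported singly. Same-numbered S1 and S3 libraries come from the same embryo, and their deviations from the group means correlated at 0.38 in the KO and 0.04 in the Het (13271 genes). The replicates are separate embryos, 2 per group, which limits precision.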

Additional observations from a re-analysis of the deposited data

Results flagged for a closer look

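*Nprl3* itself stood out because the size of the KO against Het difference was not the same at the 2 stages. Its log2 fold change was −4.65 at S1 and −0.30 at S3 in the 8-library fit, a difference of 4.35 ± 0.33 (SE, adjusted p = 0.00385 in edgeR). The KO libraries were below the Het libraries at both stages. Transcripts that start at the α-globin enhancers were not separated from the others in these counts. The call was lost when either Het embryo was left out of both stages (0 genes called) and kept when either KO embryo was.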

How the results depend on the processing

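The counts of calls moved most. The newer quasi-likelihood method called 1 gene higher (and 2 lower) in place of 3 and 3, upper-quartile normalisation 1 higher and 2 lower, DESeq2 53 and 13, no filter 241 and 39, and sex as a covariate, which leaves KO embryo 9 against both Het embryos, 1125 and 311. Leaving out 1 library at a time gave 1 to 1151 genes higher and 3 to 319 lower. A fit without a KO library takes its spread from the Het pair alone. For the difference between the stages, the fit with the replicate block gave 55 genes, DESeq2 14, no filter 141, and leaving out 1 embryo 0 to 269, against 1. *Gm15915* and *Nprl3* were called under every alternative at S1. The call of *Ntn4*, *Oas1g* and *Parp12* was lost under the newer quasi-likelihood method (adjusted p of 0.0824, 0.0564 and 0.0556) and upper-quartile normalisation (0.0584, 0.0675 and 0.0584), and that of *Ntn4*, *Parp12* and *Rnf213* with 8 libraries in the fit (0.0799, 0.0913 and 0.559). Medians of gene lists moved by more than the spread between libraries in 13 cases, as for macrophage, neutrophil and hepatoblast markers without KO embryo 9. RLE normalisation, filterByExpr and the limit of 0.6 on the log2 fold change kept all 6 calls at S1. With 2 embryos a group, a fall or rise that did not pass is not shown to be absent.

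Of the log2 fold changes of all tested genes named in the text, 18 changed direction under some alternative, none of them of a gene called at S1. With 1 library left out at a time, they ran from −0.69 to 1.11 for *Hba-a1*, −0.71 to 0.92 for *Hba-a2*, −3.10 to 3.50 for *Hba-x*, −0.49 to 1.19 for *Alas2* and −0.91 to 2.26 for *Slc4a1*, each below 0 only when KO embryo 9 was left out (adjusted p of 0.0201 and 0.0265 for *Hba-a1* and *Hba-a2* in edgeR). They ran from −10.4 to 0.13 for *Ddx3y*, −10.1 to 0.16 for *Eif2s3y*, −7.70 to 0.73 for *Kdm5d* and −9.06 to 0.41 for *Uty*, from −0.37 to 0.26 for *Kit*, −0.12 to 0.0540 for *Mpg*, −0.0691 to 0.0684 for *Psat1*, −0.23 to 0.17 for *Shmt2*, −0.14 to 0.21 for *Asns*, −0.16 to 0.0486 for *Ddit3*, −0.0219 to 0.23 for *Nprl2*, −0.0841 to 0.24 for *Snrnp25* and −0.0763 to 0.0406 for *Luc7l*. With sex as a covariate the values were 0.0570 for *Kit*, 0.13 for *Ddx3y*, 0.16 for *Eif2s3y*, 0.74 for *Kdm5d*, 0.42 for *Uty*, −0.13 for *Asns*, −0.0195 for *Nprl2*, −0.0326 for *Snrnp25* and 0.0429 for *Luc7l*. With upper-quartile normalisation they were 0.000318 for *Mpg*, 0.0260 for *Psat1* and 0.0156 for *Luc7l*.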

Other observations

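Several of the named falls had wild-type S1 values that ran across the gap between KO and Het. Beside *Gm15915* and *Ntn4*, with 1 and 6 raw reads in wild-type embryo 8, *Coro2a* had 15, 128, 184 and 15 raw reads in wild-type embryos 0, 1, 5 and 8, against 13 and 31 in KO embryos 2 and 9 and 135 and 117 in Het embryos 3 and 4. *Trmo*, near *Coro2a*, had 328, 495, 677 and 204 against 205 and 205 in the KO and 592 and 407 in the Het. The lowest wild-type counts of *Xlr4a* and *S100a8* were 36 and 155, against 51 and 49 and 1168 and 1386 in the KO. By contrast, *Nprl3*, *Fam124a*, *Spon2*, *Cyp4f39*, *Etv5* and *Xlr3a* had no wild-type value as low as the higher KO value, the lowest being 881, 207, 153, 45, 110 and 20 raw reads. Raw reads are not scaled to depth. Among the rises, *Oas1g* had 1 to 5, *Parp12* 51 to 128 and *Rnf213* 185 to 527 raw reads in wild-type libraries, all below the KO reads of 46, 376 and 705 or more.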
